A study of Saccharomyces cerevisiae with 20 samples.

Results

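Of the 7127 features counted, 5 were chosen by name because they lie opposite or beside a gene of amino acid metabolism. YNL276C (opposite MET2) and YIR017W-A (beside MET28) stand for sulfur amino acids, YER090C-A (opposite TRP2) and YHR137C-A (opposite ARO9) for aromatic amino acids, and YNL103W-A (opposite LEU4) for the branched-chain amino acids. All 5 are open reading frame (ORF) features that the RefSeq gene table does not hold. All 5 held counts in all 20 libraries and passed the filter on low counts, which kept 1399 features.

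Ribosome footprints, the RNA pieces that 80S ribosomes protect from RNase I, were sequenced from budding yeast (Saccharomyces cerevisiae). All cells were fmt1 and expressed EcFMT, the methionyl-tRNA formyltransferase of Escherichia coli, or its R42L form. They were grown at 30 °C in SC medium to an A600 near 0.5. The labels name 10 groups of 2 libraries. Of these, 8 are the strains arf1D, hrc1D, NIP1_depl and RLI1_depl, each with EcFMT and with R42L, and 2 are called MTFi and MTF, names that the labels do not spell out. The titles of MTFi and MTF name no strain, and their levels were not tested against those of the 4 strains. NIP1 encodes a subunit of initiation factor eIF3 and RLI1 encodes an ATPase that recycles ribosomes. How the depletions were made, which promoter drove the enzyme and whether the replicates were separate cultures are not stated in the labels and processing notes used here. The p-values therefore reflect the spread among these libraries alone, which may be technical.

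Yeast makes methionine and cysteine from homoserine and inorganic sulfate, and the sulfur genes are switched on by the activator Met4 with Cbf1 and Met28 when sulfur amino acids run low. Tryptophan, phenylalanine and tyrosine branch from chorismate, whereas Aro9 and Aro10 act in the breakdown of aromatic amino acids and are induced by these amino acids through Aro80. Leucine is made from the valine precursor by a pathway that opens with isopropylmalate synthase and is inhibited by leucine. Many of these biosynthetic genes are also targets of the general amino acid control activator Gcn4.

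MET2 encodes homoserine O-acetyltransferase, the enzyme that commits homoserine to methionine. In build R64 it lies on chromosome XIV at 117349 to 118809. By the order of systematic names YNL276C falls between MET2 and the borate transporter gene BOR1, which are 458 nt apart, so names alone do not settle which of them it lies opposite. MET28, the gene of the Met4 cofactor, lies on chromosome IX at 383556 to 384119, and the feature beside it is 600 nt long. TRP2, the gene of an anthranilate synthase subunit that opens the tryptophan branch, lies on chromosome V at 337949 to 339472. ARO9, the gene of an aromatic aminotransferase, lies on chromosome VIII at 375709 to 377250, and its feature is 651 nt long. LEU4, the gene of the main isopropylmalate synthase, lies on chromosome XIV at 424895 to 426754. The features at TRP2 and LEU4 are 90 nt long each. Whether counting used strand is not stated there, and whether the footprints of a feature come from the gene opposite it was not tested.

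Library totals ranged from 58090 counts in RLI1_depl to 505676 in arf1D, and 95.99% of all 4993355 counts lay on ORF features that are not in RefSeq. Under their own names ARF1, HCR1, NIP1 and RLI1 held 8.34 counts together in the 20 libraries, too few to check the strain labels. The TMM scaling factors ran from 0.364 to 3.34 and differed by strain, so strain differences depended on the scaling. Against TMM, the use of library totals moved the median log2 change of all tested features by 0.58 (RLI1_depl minus NIP1_depl) to 2.59 (RLI1_depl minus arf1D), and RLE size factors moved it by 0.15 to 0.88. Levels below are counts per 1e+06 of the library total (CPM) unless TMM is named. Directions between strains are given with the scalings under which they hold. The 4 scalings are TMM, RLE, library totals, and a separate fit of only features not in RefSeq, with its own filter, factors and adjustment. On library totals, close to CPM, 90.2% of all tested features were called higher in RLI1_depl than in arf1D, 79.1% than in hrc1D and 41.3% than in NIP1_depl. For NIP1_depl the shares were 74.2% against arf1D and 57.4% against hrc1D.

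The 5 features held 16435 counts together and their 5 genes held 350.42 under their own names. Per length, the median level over 20 libraries was 4690 TPM (transcripts per 1e+06) for YNL103W-A, 1300 for YHR137C-A, 1021 for YER090C-A, 262 for YIR017W-A and 173 for YNL276C. The ranges overlapped widely, from 124 to 3989 TPM for YHR137C-A and from 354 to 3119 TPM for YER090C-A, so neighbours in that order changed places between libraries.

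**Figure D1:**
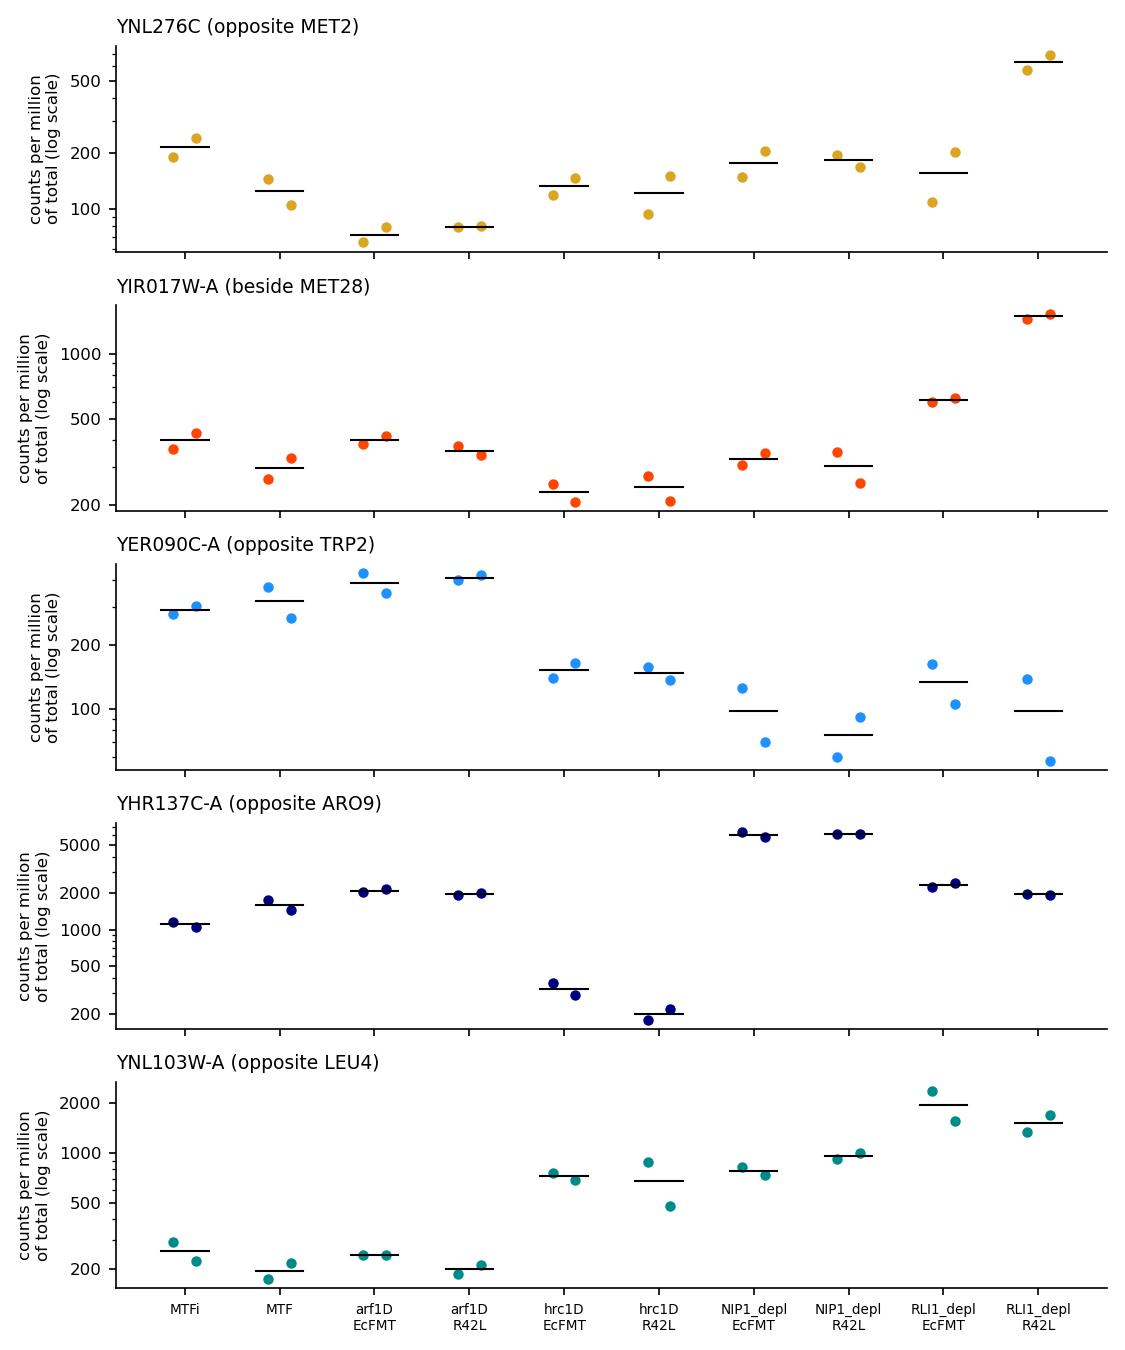
CPM, counts per 1e+06 of the library total (log scale), for each of the 5 features in the 20 libraries; points are libraries and bars are means of 2. YER090C-A is at 268 CPM or more in MTFi, MTF and arf1D and at 164 or less in every other library, YHR137C-A is lowest in hrc1D and highest in NIP1_depl, and both sulfur features are highest in RLI1_depl with R42L.

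The feature opposite ARO9 had the widest range among the 5. YHR137C-A stood at 2027 and 2162 CPM in arf1D with EcFMT and at 1941 and 2003 with R42L. It stood at 360 and 291 in hrc1D with EcFMT and at 180 and 221 with R42L. It reached 6345 and 5791 in NIP1_depl with EcFMT and 6103 and 6180 with R42L. All 4 hrc1D libraries were thus below, and all 4 NIP1_depl libraries above, every library of the other strains. RLI1_depl gave 2225 and 2419 with EcFMT and 1980 and 1945 with R42L, a range that overlapped with arf1D. The strain means were 2033 ± 93.1 CPM in arf1D (SD, n = 4 libraries per strain), against 263 ± 79.2 in hrc1D, 6105 ± 232 in NIP1_depl and 2142 ± 223 in RLI1_depl.

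In edgeR's quasi-likelihood test with Benjamini-Hochberg adjustment over all tested features, YHR137C-A fell by 4.10 on the log2 scale from arf1D to hrc1D (SE 0.13, adjusted p = 1.2e-200) and was higher in NIP1_depl than in hrc1D by 3.48 (adjusted p = 8.73e-147). It was also higher in RLI1_depl than in hrc1D by 1.40 (adjusted p = 2.4e-21) and fell by 2.08 from NIP1_depl to RLI1_depl (adjusted p = 1.69e-73). These 4 directions held, with a call, under all 4 scalings tried. NIP1_depl against arf1D turned with the scaling, from -0.62 under TMM to 0.23 under RLE and 1.61 under library totals. It was 0.39 in the fit of only features not in RefSeq. RLI1_depl against arf1D was -2.70 under TMM and 0.11 under library totals, where it was not called (adjusted p = 0.193).

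The feature opposite TRP2 showed another order. YER090C-A stood at 433 and 348 CPM in arf1D with EcFMT and at 402 and 424 with R42L. In hrc1D it stood at 140 and 164 with EcFMT and at 157 and 137 with R42L. In NIP1_depl it stood at 126 and 70.5 with EcFMT and at 60.0 and 92.0 with R42L. The arf1D libraries were all above the hrc1D libraries, and these were all above those of NIP1_depl. RLI1_depl gave 162 and 106 with EcFMT and 138 and 57.5 with R42L, which overlapped with both hrc1D and NIP1_depl and rests on 6 to 15 counts a library. Under TMM the log2 change from arf1D was -2.53 in hrc1D (edgeR adjusted p = 2.7e-47), -4.39 in NIP1_depl (1.52e-104) and -4.67 in RLI1_depl (2.48e-108). Under library totals it was smaller but still called, with log2 changes of -1.42, -2.16 and -1.87. YER090C-A was also lower in NIP1_depl than in hrc1D under all 4 scalings, by -1.86 under TMM (adjusted p = 6.58e-12) and by -0.75 under library totals (0.00809). RLI1_depl against hrc1D had a log2 change of -2.14 under TMM and lost its call under library totals (-0.46, adjusted p = 0.125).

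The 2 aromatic features therefore moved apart from each other between strains. Within a library, YHR137C-A held on average 5.06 times the counts of YER090C-A in arf1D and 1.70 times in hrc1D, but 69.7 times in NIP1_depl and 18.8 times in RLI1_depl. These ratios do not depend on the scaling. On the log2 scale the 4 libraries ranged from 2.22 to 2.63 in arf1D, from 0.20 to 1.36 in hrc1D, from 5.62 to 6.57 in NIP1_depl and from 3.74 to 4.97 in RLI1_depl, and no strain overlapped with another.

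The feature beside MET28 was high in RLI1_depl with R42L. YIR017W-A stood at 382 and 417 CPM in arf1D with EcFMT and at 372 and 339 with R42L. In hrc1D it stood at 250 and 207 with EcFMT and at 273 and 208 with R42L. In NIP1_depl it stood at 304 and 346 with EcFMT and at 351 and 253 with R42L. The arf1D libraries lay above all hrc1D libraries and overlapped with NIP1_depl. RLI1_depl gave 594 and 625 with EcFMT and 1446 and 1523 with R42L, all above every library of the other strains. With library totals 90.2% of all tested features were called higher in RLI1_depl than in arf1D, and 79.1% than in hrc1D. Under TMM, YIR017W-A fell by 1.78 log2 units from arf1D to hrc1D (edgeR adjusted p = 9.93e-29) and was higher in RLI1_depl than in NIP1_depl by 1.05 (7.9e-09), and both calls held under all 4 scalings. RLI1_depl against arf1D turned from -1.43 under TMM to 1.38 under library totals.

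The feature at MET2 had the lowest median level per length of the 5, and its strain order was not settled. YNL276C stood at 65.3 and 79.0 CPM in arf1D with EcFMT and at 78.9 and 80.2 with R42L. In hrc1D it stood at 118 and 146 with EcFMT and at 93.0 and 150.0 with R42L, and in NIP1_depl at 149 and 205 with EcFMT and at 197 and 169 with R42L. RLI1_depl gave 108 and 203 with EcFMT and 568 and 690 with R42L, where the R42L libraries stood above every other library. None of the 6 strain differences of YNL276C was called in the same direction under all 4 scalings. The RLI1_depl minus arf1D change, for example, was -0.68 under TMM (adjusted p = 0.00601), 0.32 under RLE and 2.12 under library totals, and its TMM call was lost without the first EcFMT replicate of RLI1_depl (-0.57, 0.0511).

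Among the 4 strains, the feature opposite LEU4 was lowest in arf1D in CPM. YNL103W-A stood at 241 and 244 CPM in arf1D with EcFMT and at 187 and 212 with R42L. In hrc1D it stood at 757 and 692 with EcFMT and at 878 and 476 with R42L, and in NIP1_depl at 819 and 741 with EcFMT and at 926 and 997 with R42L. RLI1_depl gave 2355 and 1567 with EcFMT and 1343 and 1705 with R42L, all above every other library. With library totals 90.2% of all tested features were called higher in RLI1_depl than in arf1D, and 79.1% than in hrc1D. The arf1D libraries were below those of the other 3 strains, and hrc1D and NIP1_depl overlapped. It rose from arf1D to hrc1D by 0.57 log2 units under TMM (edgeR adjusted p = 0.000311) and was higher in RLI1_depl than in NIP1_depl by 0.44 (0.00481), and both calls held under all 4 scalings. Under TMM the first was lost without the first R42L replicate of hrc1D (0.29, adjusted p = 0.232). The second was lost without the second EcFMT replicate of NIP1_depl (0.40, 0.0515), the first EcFMT replicate of RLI1_depl (0.28, 0.192) and its second R42L replicate (0.31, 0.162). RLI1_depl against arf1D was 0.21 under TMM (adjusted p = 0.177) and 3.02 under library totals, and NIP1_depl against arf1D turned from -0.23 under TMM to 2.0 under library totals.

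Strain differences were common among all features, so the calls of these 5 stand against a high background. All 5 were called in the test that the 4 strains differ, in which 85.8% of tested features were called. Of hrc1D minus arf1D, 4 of the 5 were called against 35.5% of all tested features, of NIP1_depl minus arf1D 4 against 62.4%, and of RLI1_depl minus arf1D 4 against 73.3%. Of NIP1_depl minus hrc1D all 5 were called against 45.6%, of RLI1_depl minus hrc1D 3 against 57.7%, and of RLI1_depl minus NIP1_depl 3 against 42.7%. The 5 are not in RefSeq, and in the fit of only such features the background was higher. Of 440 features, 303 were called in hrc1D minus arf1D and 354 each in NIP1_depl and RLI1_depl minus arf1D, with 4 of the 5 each time. NIP1_depl minus hrc1D gave 292 with 2 of the 5, RLI1_depl minus hrc1D 278 with 4, and RLI1_depl minus NIP1_depl 233 with 3. Over the 30 differences of 5 features and 6 strain pairs, 23 were called under TMM, 17 had the same sign under all 4 scalings, and 12 were called with that sign under each of them.

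**Figure D2:**
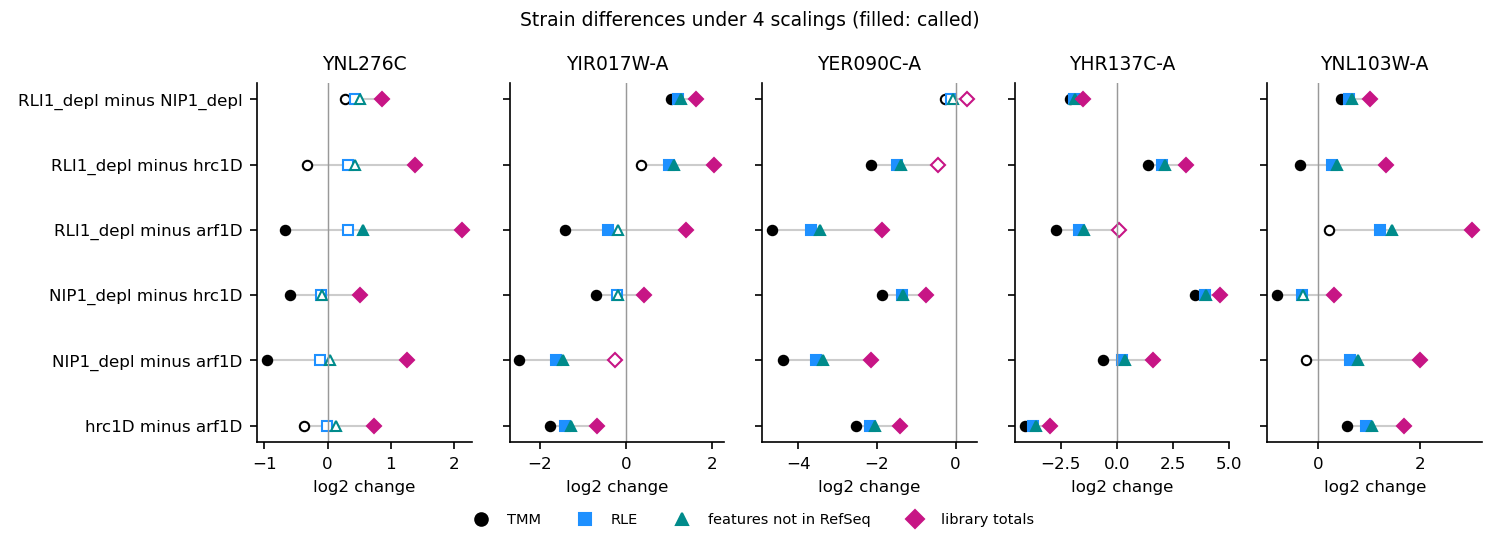
Log2 change of each feature between strains (x axis) for the 6 strain pairs (rows) under 4 scalings. These are TMM, RLE, a separate fit of only features not in RefSeq, and library totals. Filled symbols have an adjusted p under 0.05. YHR137C-A and YER090C-A each keep 4 called directions under all 4 scalings, YIR017W-A and YNL103W-A 2 each and YNL276C 0.

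The sulfur, aromatic and branched-chain features were next compared within each library as log2 ratios of their summed counts, which no scaling of libraries can alter. YIR017W-A supplied most of the sulfur sum and YHR137C-A most of the aromatic sum, so the ratios mainly follow these features. The ratios are of counts, not of levels per length, so they are read only between libraries.

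The sulfur over aromatic log2 ratio averaged -2.42 in arf1D (n = 4 libraries per strain), against -0.17 in hrc1D, -3.65 in NIP1_depl and -0.82 in RLI1_depl. The largest strain difference was -3.48, from hrc1D to NIP1_depl. YNL276C over YER090C-A alone went the other way, from a mean log2 ratio of -0.26 in hrc1D to 1.06 in NIP1_depl. Its mean of -2.39 in arf1D was also below that of NIP1_depl, again opposite to the summed ratio. From arf1D to hrc1D, and from arf1D to RLI1_depl (1.45), it rose as the summed ratio did. The sulfur over branched-chain ratio averaged 1.04 in arf1D, -0.92 in hrc1D and -0.82 in NIP1_depl. In RLI1_depl it averaged -0.42, with the forms on either side of 0, at -1.33 with EcFMT and 0.48 with R42L. The aromatic over branched-chain ratio averaged 3.46 in arf1D and 2.83 in NIP1_depl, but 0.40 in RLI1_depl and -0.74 in hrc1D, with a largest difference of -4.20 from arf1D to hrc1D. In hrc1D the branched-chain feature thus held more counts than both aromatic features together, and in arf1D and NIP1_depl far fewer. YNL103W-A over YER090C-A alone averaged 2.18 in hrc1D and was higher in NIP1_depl, at 3.31, and RLI1_depl, at 3.91. Relative to YNL103W-A, YER090C-A thus fell from hrc1D to these strains, where the aromatic sum rose. Compared with arf1D (-0.86), both YER090C-A and the sum were lower relative to YNL103W-A in every other strain. Strain differences in the ratios to YER090C-A alone were not tested.

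Of the 18 strain differences in these 3 ratios, 14 reached p = 0.0286 in exact two-sided permutation tests, the smallest p that 4 against 4 libraries allow, with an adjusted p of 0.0367 over the 18. The other 4 did not pass. They were sulfur over aromatic in RLI1_depl against hrc1D (p = 0.343, exact) and sulfur over branched-chain among hrc1D, NIP1_depl and RLI1_depl (p = 0.343, 0.514 and 0.657, exact). All 6 differences of aromatic over branched-chain passed, and none of these strains overlapped. These tests took the EcFMT and R42L libraries of a strain together, as if alike. In RLI1_depl, however, EcFMT minus R42L was -1.72 for sulfur over aromatic and -1.81 for sulfur over branched-chain.

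**Figure D3:**
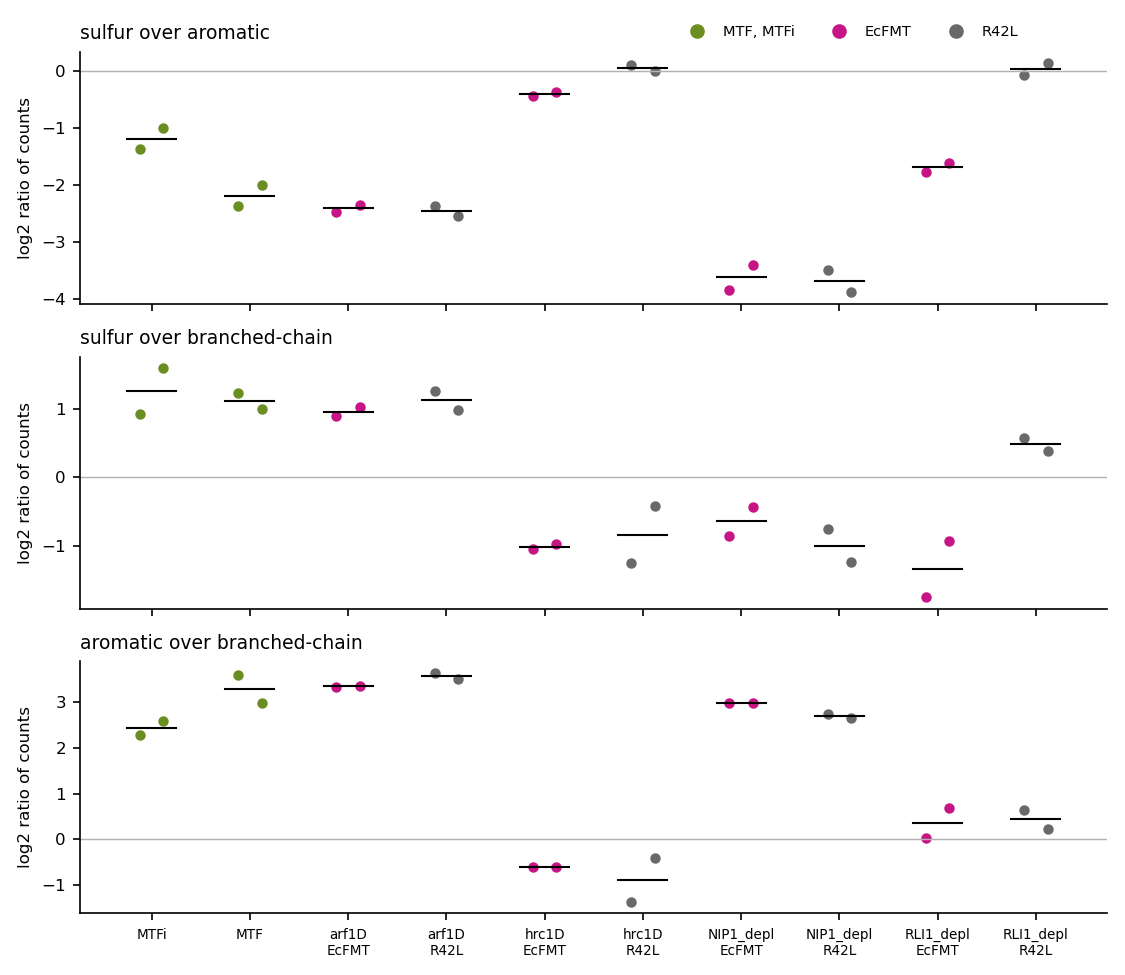
Log2 ratio of summed counts within each library for sulfur over aromatic, sulfur over branched-chain and aromatic over branched-chain features; points are libraries coloured by enzyme form and bars are means of 2. In RLI1_depl the sulfur over aromatic ratio is -1.76 and -1.60 with EcFMT and -0.07 and 0.14 with R42L, while in arf1D the 4 libraries lie between -2.53 and -2.34.

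The comparison of EcFMT with R42L asked how the enzyme form bears on the footprints of each strain. In RLI1_depl both sulfur features were lower with EcFMT. YNL276C held 10 and 25 counts with EcFMT (108 and 203 CPM) and 33 and 72 with R42L (568 and 690 CPM). It fell by 1.69 on the log2 scale with EcFMT (SE 0.33, 95% interval from -2.34 to -1.05, edgeR adjusted p = 0.000105). YIR017W-A held 55 and 77 counts with EcFMT (594 and 625 CPM) and 84 and 159 with R42L (1446 and 1523 CPM). It fell by 1.0 (SE 0.22, 95% interval from -1.42 to -0.57, adjusted p = 0.000461). Both calls held in all 7 alternative fits that kept every library, with the sign the same in each.

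The aromatic and branched-chain features of RLI1_depl went the other way by TMM. YHR137C-A was higher with EcFMT by 0.54 (SE 0.17, adjusted p = 0.0449) and YNL103W-A by 0.62 (SE 0.19, adjusted p = 0.0345). In CPM, YHR137C-A was higher in both EcFMT libraries, but YNL103W-A overlapped. Each of these calls held in only 1 of 7 alternative fits, the replicate block. YER090C-A had a log2 change of 0.86 (95% interval from -0.09 to 1.80, adjusted p = 0.414), on 15 and 13 counts with EcFMT and 8 and 6 with R42L. Of all tested features 3.43% were called in RLI1_depl, 2.79% as higher and 0.643% as lower with EcFMT, against 2 higher and 2 lower among the 5. Under library totals the shares of all features were 0.786% higher and 2.0% lower, against 0 higher and 2 lower among the 5. Under TMM the median log2 change of all tested features in this comparison was 0.05, and library totals moved it by -0.3. For tested features not in RefSeq, as the 5 are, the TMM median was 0.25. In the fit of only such features 2.73% were called higher and 3.41% lower, against 0 higher and 2 lower among the 5.

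All 4 calls in RLI1_depl rest on few libraries. YNL276C lost its call without the first EcFMT replicate (-1.31, adjusted p = 0.0757) and without the second R42L replicate (-1.44, 0.0608). YIR017W-A kept it only without the first R42L replicate and lost it without the first EcFMT replicate (-0.91, 0.0757), the second (-1.0, 0.0569) and the second R42L replicate (-0.87, 0.123). YNL103W-A kept it only without the second EcFMT replicate and lost it without the first (0.36, 0.726), the first R42L replicate (0.50, 0.479) and the second (0.90, 0.0575). YHR137C-A lost it without any 1 of the 4, with log2 changes of 0.65 and 0.50 without the EcFMT replicates and 0.57 and 0.60 without the R42L replicates. Where 1 library remained in a group, its spread was taken from the other groups.

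**Figure D4:**
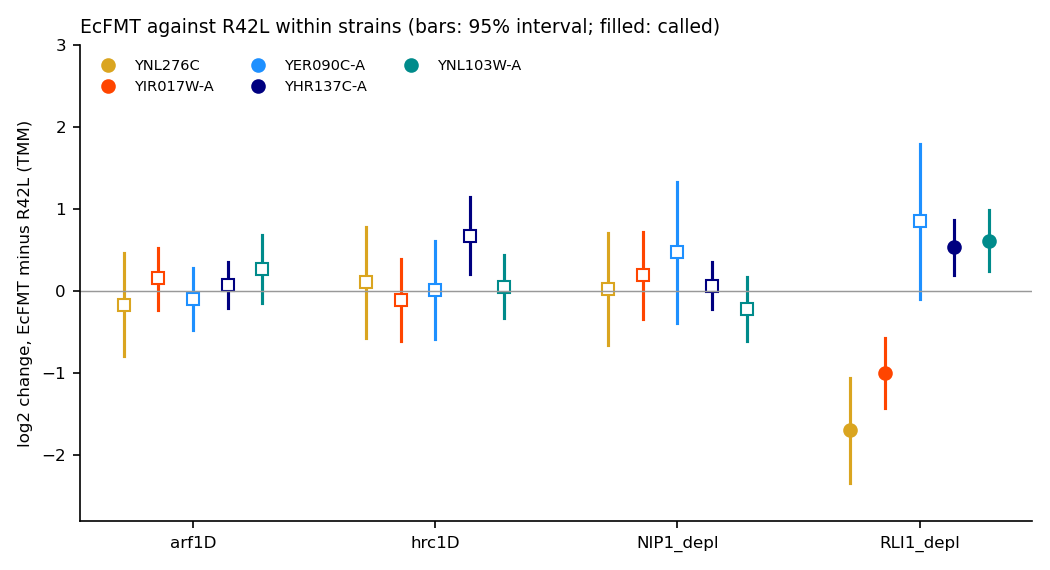
Log2 change of EcFMT minus R42L under TMM (y axis) for the 5 features in each strain, with 95% intervals; filled circles have an adjusted p under 0.05 and open squares do not. In RLI1_depl the sulfur features lie at -1.69 and -1.0 and the others at 0.54 to 0.86, whereas in the other strains all 15 values lie between -0.21 and 0.68.

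In arf1D, hrc1D and NIP1_depl none of the 5 features was called, where 0.0% of all tested features were called in each strain. At an unadjusted p under 0.05 there were 39, 57 and 42 features by edgeR in these strains, and DESeq2 called 0 in each. YNL276C had log2 changes of -0.16 (95% interval from -0.79 to 0.47) in arf1D, 0.11 (from -0.57 to 0.79) in hrc1D and 0.03 (from -0.65 to 0.71) in NIP1_depl. YIR017W-A had 0.16 (from -0.22 to 0.53), -0.11 (from -0.61 to 0.40) and 0.20 (from -0.33 to 0.72). These intervals exclude the point values of -1.69 and -1.0 in RLI1_depl, which have intervals of their own. For YNL276C the RLI1_depl interval, from -2.34 to -1.05, overlapped with none of them. For YIR017W-A it ran from -1.42 to -0.57 and overlapped with that of hrc1D. The largest value outside RLI1_depl was that of YHR137C-A in hrc1D, 0.68 (SE 0.24, adjusted p = 0.828), with 360 and 291 CPM with EcFMT and 180 and 221 with R42L.

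The difference between strains in the effect of the enzyme form was tested directly. YNL276C and YIR017W-A each had an adjusted p of 0.0343 in edgeR's F test that the 4 within-strain changes are equal, in which 10 features or 0.715% of those tested were called. The other 3 features had adjusted p-values of 0.491 to 0.853. With no filter neither was called (adjusted p = 0.129 for YNL276C and 0.303 for YIR017W-A), and DESeq2 called YIR017W-A (0.0127) and gave no adjusted p for YNL276C. YNL276C kept the call in 4 of 16 fits that left out 1 library and YIR017W-A in 1 of 16. The highest adjusted p came without the first EcFMT replicate of RLI1_depl, 0.951 for YNL276C and 0.807 for YIR017W-A.

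Averaged over the 4 strains, YHR137C-A was the single feature of the 5 that was called, higher with EcFMT by 0.34 (SE 0.09, edgeR adjusted p = 0.0339), where 0.357% of tested features were called. Its 4 within-strain values were all above 0, at 0.08, 0.68, 0.07 and 0.54 in the order arf1D, hrc1D, NIP1_depl, RLI1_depl, though that of NIP1_depl was -0.01 under library totals. The call held in 3 of 7 alternative fits and in 2 of 16 fits without 1 library, over which the change ranged from 0.28 to 0.39. Within libraries, the sulfur over aromatic log2 ratio was lower with EcFMT by a mean of -0.52 over strains (p = 0.0679, exact permutation within strains, adjusted p = 0.204), a mean made up of -1.72 in RLI1_depl, -0.46 in hrc1D, 0.06 in NIP1_depl and 0.05 in arf1D. The sulfur over branched-chain ratio differed by -0.45 (p = 0.171, exact), made up of -1.81 in RLI1_depl, -0.17 in arf1D, -0.17 in hrc1D and 0.35 in NIP1_depl. The aromatic over branched-chain ratio differed by 0.07 (p = 0.708, exact). In RLI1_depl alone, 2 libraries against 2 cannot reach a p below 0.333.

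The groups MTF and MTFi gave a smaller contrast. YNL276C stood at 192 and 244 CPM in MTFi and at 145 and 104 in MTF. It fell by 0.94 from MTFi to MTF (SE 0.27, 95% interval from -1.47 to -0.42, edgeR adjusted p = 0.0305) and was the single feature of the 5 that was called, where 1.72% of all tested features were. The call was lost with RLE factors (-0.73, adjusted p = 0.114), with no filter (-1.02, 0.131) and with only the 4 libraries compared (-0.79, 0.0706), and DESeq2 gave no adjusted p. It was also lost without the second MTFi replicate (-0.50, 0.842), the first MTF replicate (-1.16, 0.0651) and the second MTF replicate (-0.70, 0.613). YHR137C-A stood at 1153 and 1050.0 CPM in MTFi and at 1750.0 and 1460.0 in MTF. Its change of 0.46 (SE 0.15) missed the threshold at an edgeR adjusted p of 0.106 but was called in 5 of 7 alternative fits. YIR017W-A had a change of -0.53 (adjusted p = 0.217), YNL103W-A of -0.46 (0.441) and YER090C-A of 0.02 (1.0). The sulfur over aromatic log2 ratio averaged -1.18 in MTFi and -2.18 in MTF.

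Few counts were assigned to the 5 genes under their own names. The counting strand is not stated. SAM1, SAM2 and ILV5 held 0 counts under their own names in the 20 libraries, and 95.99% of all counts lay on ORF features not in RefSeq. Whether a gene's own footprints are counted under the feature opposite it was not tested. In RLI1_depl ARO9 held 25.87 and 25.85 counts with EcFMT and 20.41 and 34.32 with R42L (210.0 to 351 CPM). In the other strains ARO9 held 1 count in hrc1D and 0 in arf1D and NIP1_depl. Against a floor of 3 counts over the 4 libraries of a strain, its own-name count under TMM was at least 22.9-fold higher in RLI1_depl than in arf1D. Against NIP1_depl it was at least 35.5-fold higher. Under library totals these bounds were 160 and 52.9. The ARO9 counts in RLI1_depl were not whole numbers, and the gene YHR138C lies 104 nt past the end of ARO9. Where the reads under this name come from was not tested, so the bounds are of counts and not of ARO9 translation. The feature opposite ARO9, YHR137C-A, was lower in RLI1_depl than in NIP1_depl but higher than in hrc1D, both under all 4 scalings. Against arf1D its direction turned with the scaling. ARO9 made up 11.5% of the counts of gene and feature together in RLI1_depl. By the same measure MET2 made up 35.5% in RLI1_depl and 35.9% in NIP1_depl. MET28 made up 2.85% and 14.1% in these strains.

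MET2 held 8 counts under its own name in arf1D, against 29 in hrc1D, 56 in NIP1_depl and 77 in RLI1_depl. In CPM this was 4.87 ± 5.42, 30.6 ± 21.9, 97.4 ± 24.8 and 198 ± 37.1 (SD, n = 4), and no strain overlapped with another on that scale. With library totals 90.2% of all tested features were called higher in RLI1_depl than in arf1D. Under TMM MET2 was higher than in arf1D by 1.67 log2 units in hrc1D (edgeR adjusted p = 0.0406), 2.25 in NIP1_depl (0.000347) and 2.73 in RLI1_depl (3.05e-06). RLI1_depl minus NIP1_depl did not pass (0.49, adjusted p = 0.303). The hrc1D call rests on 8 counts in arf1D and held in 4 of 8 fits without 1 library, with log2 changes of 1.10 to 3.43 and a highest adjusted p of 0.346. In RLI1_depl MET2 stood at 238 and 219 CPM with EcFMT and at 155 and 182 with R42L, above 0 in log2 change (0.70, adjusted p = 0.577) where YNL276C was lower. MET28 held 55 counts in all and was higher in NIP1_depl than in arf1D by 3.15 (adjusted p = 0.00529) on 29 against 5 counts. TRP2 held 5 counts and LEU4 held 9 in the 20 libraries, and neither passed the filter.

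**Figure D5:**
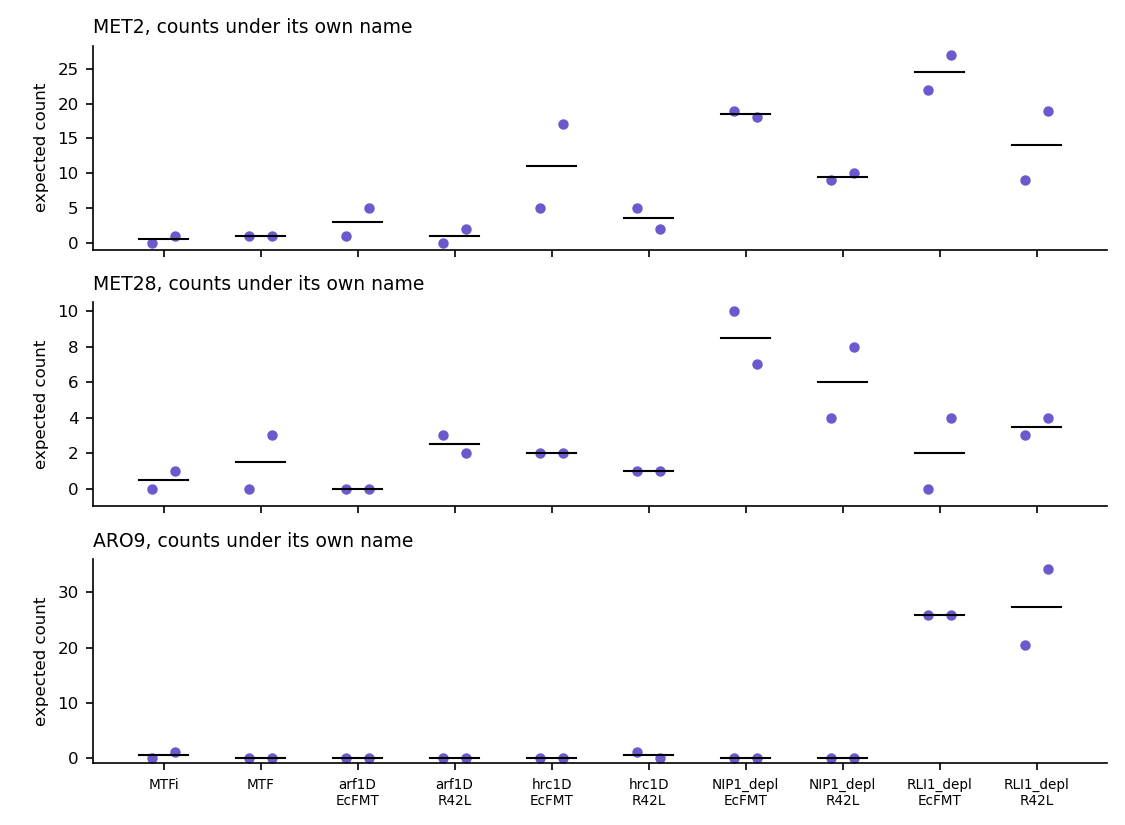
Expected counts of MET2, MET28 and ARO9 under their own names in the 20 libraries; points are libraries and bars are means of 2. ARO9 has 20.41 to 34.32 counts in RLI1_depl and at most 1 elsewhere, and MET2 has 9 to 27 counts in NIP1_depl and RLI1_depl and at most 5 in arf1D.

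Genes of the same pathways were read from lists of 41 sulfur, 20 aromatic and 16 branched-chain genes. The lists include MET2, MET28, TRP2, ARO9 and LEU4, whose counts are given above. Under their own names 8 sulfur genes, MET2 and MET28 among them, passed the filter on low counts. None was called between EcFMT and R42L in any strain or between MTF and MTFi. From arf1D to NIP1_depl 6 of the 8 rose and 0 fell, with a median log2 change of 2.62 against 1.19 for all tested features, of which 40.6% were called higher. Under library totals 7 of the 8 were called higher against 74.2% of all tested features. The 6 called higher under TMM include MET2 and MET28, already given above. They also include the sulfate permease gene SUL2 (2.94, edgeR adjusted p = 1.94e-06) and MET13, a methylenetetrahydrofolate reductase gene (2.30, 0.000584). SUL1, another sulfate permease gene (3.6e-05), and STR3, a cystathionine beta-lyase gene (1.2e-05), were called on 1 count each over the arf1D libraries, so no fold is given. From arf1D to RLI1_depl 4 of the 8 rose and 0 fell, where 51.5% of all tested features were called higher, and from arf1D to hrc1D 3 rose and 0 fell, against 18.7%. The tested features include 437 that are not in RefSeq. Their median TMM log2 change from arf1D was -1.09 in NIP1_depl, -1.03 in RLI1_depl and -0.5 in hrc1D. Shares and medians over features in RefSeq alone were not computed, so the 8 genes are not set against like features.

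Of the aromatic genes 4, ARO9 included, passed the filter, and none was called between enzyme forms. ARO80, the gene of the activator of ARO9 and ARO10, had TMM log2 changes against arf1D of -1.02 in hrc1D (edgeR adjusted p = 0.0346), -2.94 in NIP1_depl (3.57e-09) and -1.01 in RLI1_depl (0.0129), which library totals turned to 0.08 in hrc1D and 1.78 in RLI1_depl and reduced to -0.76 in NIP1_depl. ARO10, a decarboxylase gene of aromatic amino acid breakdown, rose by 2.23 from arf1D to hrc1D (1.37e-09), and its change of -1.47 in NIP1_depl (0.00715) turned to 0.71 under library totals. PHA2, the prephenate dehydratase gene, was higher in RLI1_depl than in arf1D (0.00719) on 18 counts against 1. No branched-chain gene passed the filter, and 8 of the 16 held 0 counts.

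Besides the 5, 6 tested features lay opposite or between genes of these lists. YDR354C-A, between the anthranilate phosphoribosyltransferase gene TRP4 and SPC110, was lower than in arf1D in all 3 other strains under TMM, by -1.83 in hrc1D (edgeR adjusted p = 1.71e-12), -4.62 in NIP1_depl (2.91e-44) and -4.18 in RLI1_depl (1.4e-38), and stayed lower under library totals. Its neighbour YDR355C had TMM changes of -1.05 in NIP1_depl (7.11e-06) and -1.57 in RLI1_depl (1.14e-10), which library totals turned to 1.18 and 1.23. YOR108C-A, between LEU9, the gene of the minor isopropylmalate synthase, and INP53, was lower than in arf1D in NIP1_depl (-3.31, 2.3e-21) and RLI1_depl (-3.99, 3.86e-25), and under library totals by -1.11 and -1.23. YNL103W-A at LEU4 had no call in that direction. YNL105W, between LEU4 and INP52, had TMM changes of 0.52 (0.0297), 0.51 (0.016) and 0.06 (0.805) in hrc1D, NIP1_depl and RLI1_depl. Under library totals these were 1.63, 2.73 and 2.86, and RLE factors gave 1.06 in RLI1_depl, all called. YDR509W, opposite the amino acid permease gene GNP1, was the single one of the 6 called between enzyme forms in RLI1_depl, higher with EcFMT by 0.54 (0.0264), a call that RLE factors did not keep (0.39, 0.06). YFR056C, between the beta-lyase gene IRC7 and YFR057W, had a change of -0.34 there (0.659).

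The features most like each of the 5 over the 10 group means of TMM-scaled log2 CPM were found by Pearson's r among 1279 candidates, as a description over groups that share depth and scaling. Those like YER090C-A included YER068C-A and YJR087W opposite EMC2, each with r = 0.997. YIR017W-A was followed by YDR510C-A (0.970), YEL050W-A opposite RML2 (0.954) and YJL152W (0.945), and YNL276C by YHL019W-A (0.911), YER067C-A (0.899) and YDL016C opposite CDC7 (0.873). YHR137C-A was closest to YLR437C-A opposite CAR2, the ornithine transaminase gene of arginine breakdown, at 0.878, then to YAL016C-A (0.844) and YOL150C (0.839). YNL103W-A was followed by YLR444C (0.932), YOL099C opposite PKH2 (0.804) and YPL162C (0.779). Among the 5 themselves the highest values were 0.84 for YIR017W-A with YER090C-A and 0.80 for the sulfur pair, the aromatic pair had 0.45, and YHR137C-A with YNL103W-A had -0.67.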

How the data were processed

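Ribosome footprints were measured in 20 libraries, 10 groups of 2. STAR 2.7.2b, RSEM 1.2.31 and build R64 are named in the data processing, per the submitters' processing notes. The expected counts deposited by the authors are not scaled for depth, and were rounded for the tests. The TPM values deposited by the authors are scaled for length and depth, and were used here to compare levels between features. No strand setting is named there. A RefSeq table matched 6047 features, 6691 were kept as ORF features, and 683 of these were not in RefSeq. Features outside it were placed by the order and strand of systematic names, and their own coordinates were not used here.

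Tests used edgeR 4.0.16 in R 4.3.3 (quasi-likelihood, robust prior, TMM factors, filterByExpr at a minimum count of 10, 1 mean per group, 10 residual degrees of freedom, common biological coefficient of variation 0.11). Of the 1399 features tested, 437 were not in RefSeq. Benjamini-Hochberg adjustment ran over all of them, with calls at an adjusted p under 0.05. The SE was taken from the log2 change and its F statistic, as |change|/√F. Ratios within libraries had a pseudocount of 0.5 and exact two-sided permutation tests, with 70 splits per strain pair and 1296 within strains. On simulated counts of EcFMT minus R42L in RLI1_depl, with 200 of 1297 tested features changed 2-fold at a mean of 50 counts or more, the fit called 179 of them and 9 unchanged ones. That mean was taken over all 20 libraries, and counts were drawn with the dispersions of the fit itself. YNL276C, with 741.01 counts in the 20 libraries, was below it, so the simulation does not cover that feature. Alternatives were RLE factors, library totals, no filter, only features not in RefSeq, only the 4 libraries compared, a replicate block, DESeq2 1.42.0 and leaving out each library.

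Replicate numbers did not pair samples across groups: over 45 pairs of groups the correlation of same-numbered deviations ran from -0.07 to 0.076. Text names the 5 features, their genes, the 3 features of highest correlation with each (average log2 CPM of at least 4), tested genes of the lists, and up to 4 features per list. The members, lists and alternatives were chosen with earlier results of these data known. Totals of 58090 to 505676 counts limit precision, most in RLI1_depl. One feature among those most like a member is not reported here.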

Additional observations from a re-analysis of the deposited data

Results flagged for a closer look

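In the test of whether the change between EcFMT and R42L differs among the 4 strains, both sulfur features were called. YNL276C and YIR017W-A each had an adjusted p of 0.0343 in edgeR's F test that the 4 within-strain changes are equal, which 4 and 1 of 16 fits without 1 library kept. With no filter neither was called (0.129 and 0.303). The log2 change of YNL276C was -1.69 in RLI1_depl, -0.16 in arf1D, 0.11 in hrc1D and 0.03 in NIP1_depl, and that of YIR017W-A was -1.0, 0.16, -0.11 and 0.20. RLI1_depl libraries had 58090 to 123204 counts, the lowest total of any strain, and their TMM factors differed between the forms, at 2.66 and 2.73 with EcFMT and 3.33 and 3.34 with R42L. The part of depth and scaling in these results was not tested beyond the alternative fits.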

How the results depend on the processing

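Counts of called features moved by more than 1.5 times under these settings. For MTF minus MTFi, 24 became 45 with RLE (33 higher, 12 lower, against 4 and 20), 39 with library totals and 9 with no filter. For RLI1_depl with EcFMT minus R42L, 48 became 9 with no filter, 27 with only features not in RefSeq and 24 with DESeq2, and library totals split the calls as 11 higher and 28 lower against 39 and 9. For the mean over strains, 5 became 8 with RLE, 0 with no filter, 2 with only features not in RefSeq, 0 without RLI1_depl and 11 with DESeq2. For NIP1_depl, 0 became 1 with only the 4 libraries. The test that strains differ in this effect gave 10, then 19 with RLE, 1 with no filter and 19 with DESeq2. With only features not in RefSeq, which tests fewer features, strain pairs gave 233 (RLI1_depl minus NIP1_depl), 278 (RLI1_depl minus hrc1D), 354 (RLI1_depl minus arf1D), 292 (NIP1_depl minus hrc1D), 354 (NIP1_depl minus arf1D) and 303 (hrc1D minus arf1D), and the test over strains 412. DESeq2 gave 302 for RLI1_depl minus NIP1_depl, and R42L libraries alone gave 404 for NIP1_depl minus hrc1D and 330 for hrc1D minus arf1D. Library totals raised the share of higher calls in RLI1_depl minus arf1D from 70.2% to 95.5%, and in hrc1D minus arf1D from 52.7% to 89.1%. Except where the tested features or libraries were fewer, the cause was not tested.

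Signs turned as follows. YNL276C, RLI1_depl minus hrc1D (-0.32): 0.33 with RLE, 1.38 with totals, 0.44 with features not in RefSeq, 0.59 with R42L only, 0.31 with DESeq2. RLI1_depl minus arf1D (-0.68): 0.32, 2.12, 0.56, 0.08 and 0.30. NIP1_depl minus hrc1D: 0.52 with totals. NIP1_depl minus arf1D: 1.26 with totals, 0.04 with features not in RefSeq. hrc1D minus arf1D: 0.74 and 0.13. EcFMT minus R42L in NIP1_depl (0.03): between -0.06 and -0.01 (-0.03 with RLE and with 4 libraries, -0.06 with totals and no filter, -0.01 with features not in RefSeq, -0.02 with DESeq2). YIR017W-A turned with totals in RLI1_depl minus arf1D (1.38) and NIP1_depl minus hrc1D (0.42), with no filter in hrc1D by enzyme form (0.13) and without RLI1_depl in the mean (0.08). YER090C-A turned with no filter in MTF minus MTFi (-0.06) and arf1D by enzyme form (0.04), in hrc1D by form with RLE (-0.02) and DESeq2 (-0.01), and with totals in RLI1_depl minus NIP1_depl (0.29). YHR137C-A turned in NIP1_depl minus arf1D to 0.23 with RLE and DESeq2, 1.61 with totals and 0.39 with features not in RefSeq, in RLI1_depl minus arf1D to 0.11 with totals, and in NIP1_depl by form to -0.01 with totals and -0.02 with no filter. YNL103W-A turned in RLI1_depl minus hrc1D to 0.28 with RLE and DESeq2, 1.34 with totals and 0.38 with features not in RefSeq. In NIP1_depl minus hrc1D it turned to 0.32 with totals, and in NIP1_depl minus arf1D to 0.62 with RLE and DESeq2, 2.0 with totals, 0.78 with features not in RefSeq and 0.01 with R42L only.

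Leaving out 1 library gave 15 to 38 calls for MTF minus MTFi, 0 to 1 in arf1D, 0 to 2 in hrc1D, 0 to 1 in NIP1_depl, 11 to 17 in RLI1_depl, 0 to 7 for the mean and 0 to 9 for the difference among strains. The aromatic over branched-chain ratio by enzyme form ranged from -0.05 to 0.19. Signs turned for YER090C-A in MTF minus MTFi (-0.19 to 0.32), arf1D by form (-0.23 to 0.03), hrc1D (-0.10 to 0.19), NIP1_depl (-0.05 to 0.76) and RLI1_depl minus NIP1_depl (-0.58 to 0.02). They turned for YNL276C in hrc1D (-0.14 to 0.53), NIP1_depl (-0.24 to 0.24) and RLI1_depl minus NIP1_depl (-0.01 to 0.44), for YIR017W-A in hrc1D (-0.22 to 0.17) and NIP1_depl (-0.09 to 0.46), for YNL103W-A in hrc1D (-0.24 to 0.65) and for YHR137C-A in NIP1_depl (-0.01 to 0.10).

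The replicate block, though numbers did not pair samples, gave 22 calls for MTF minus MTFi, 0 in arf1D, hrc1D and NIP1_depl, 48 in RLI1_depl, 6 for the mean and 10 for the difference among strains, and 1176 for the test over strains. Depth limits RLI1_depl most, where YER090C-A had 6 to 15 counts a library.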
